A study of Mus musculus with 9 samples.

Results

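Binding of Cdx2 was described here over 5100 peaks on chromosomes 1 to 19 and X, called in 1 chromatin immunoprecipitation (ChIP-seq) library labelled Wt, and set against the open chromatin of 2 ATAC-seq libraries labelled Wt. These were all of the library's peaks on those chromosomes, out of 5179 in its list. ChIP-seq sequences the DNA that an antibody pulls down with a protein, and ATAC-seq marks open chromatin by where a transposase can insert. All 3 libraries came from large intestinal cells of mice, enriched from fresh colon with EDTA. By the strain label, all carried Cdx1-/- and Cdx2f/f and were tagged vill (-), so that by this label the Wt mice were Cdx1 null. The 2 ATAC samples were tagged as tamoxifen treated and the ChIP sample as untreated, although a shared protocol gives 6 days of tamoxifen for the mice. Binding and open chromatin therefore came from separate samples that differ in this tag, and its part in the overlaps was not tested. No label says that the ATAC replicates came from separate animals.

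Cdx2 is a homeobox transcription factor that sets and keeps the identity of the intestinal epithelium, and Cdx1 is its close paralog there. It binds an AT-rich core, often written ATAAA, in promoters and, more often, in distal enhancers of genes for digestion, absorption and the brush border. It works with other factors of the tissue such as Hnf4a, Hnf4g, Gata6 and Klf5, and in the adult gut much of its known binding lies at enhancers that are accessible to transposase.

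The Cdx2 peaks had a median width of 255 bp and a median fold enrichment over the background of 5.59, with a range from 2.42 to 20.3. The ATAC lists held 48159 peaks in replicate 1 and 53937 in replicate 2 on the same chromosomes, and covered 0.411% and 0.477% of their length up to the last annotated gene. Of the replicate 1 ATAC peaks, 73.3% overlapped a replicate 2 peak, and 64.1% the other way. As a check of the tissue label, 19 of 20 general epithelial marker genes had an ATAC summit within 1 kb of a start in each replicate, against 58.3% and 60.4% of all coding genes in replicates 1 and 2. Immune markers had one for 2 and 3 of 20 genes, and markers of stroma, muscle and endothelium for 4 and 5 of 20. Neuronal genes had one for 11 and 13 of 20, close to the share of all coding genes, and hepatocyte genes for 2 and 5 of 20. Ubiquitous genes had one for 18 of 20 in each replicate, so the epithelial count alone does not single out epithelium. Lists of called peaks hold no reads, so the depth behind each peak is unknown, and with 1 ChIP library no difference below was tested. Intervals in brackets are exact (Clopper-Pearson) 95% intervals and cover counting only.

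Sequences were available for the promoter window of a gene, from 250 bp before to 50 bp after its start, and 205 Cdx2 peaks (4.02%) had their summit in 1 of these windows. These peaks were unlike the rest: 82.0% overlapped an ATAC peak in both libraries, against 35.0% of all Cdx2 peaks, and their median fold was 4.75 against 5.59. The stretches of 8 such promoters are shown, chosen as clear cases. Sis, Fabp2 and Dennd1b hold a Cdx2 core near the summit of a peak without an ATAC peak. Cdhr5, Dnm2 and Smarcad1 hold a core near the summit of a Cdx2 peak that overlaps ATAC peaks. At Nr5a2, also under ATAC peaks, the only core in the stretch lies 69 bp from the summit. Ugt2b34 has no core in its stretch. Stretches were cut for 13 promoters, those of 9 listed genes and of the 4 named genes with the strongest other peaks. In 4 of the 13, at Ugt2b34, Pck1, Slc26a3 and Cyp3a13, the stretch held no core. Sis encodes sucrase-isomaltase, a brush border enzyme long known as a Cdx2 target, Fabp2 the intestinal fatty acid binding protein and Cdhr5 a cadherin that links microvilli. Dnm2 encodes a dynamin of endocytosis, Smarcad1 a chromatin remodeller, Nr5a2 a nuclear receptor of crypt cells and Ugt2b34 a glucuronosyltransferase. Each stretch reaches at most 75 bp to either side of the summit, ends before the gene start, and is read 5′ to 3′ on the strand of the gene. Capitals mark ATAAA or its reverse complement TTTAT. Sequences are from RefSeq, GRCm38.p6.
Sis, chr3:72967864-72967955, minus strand: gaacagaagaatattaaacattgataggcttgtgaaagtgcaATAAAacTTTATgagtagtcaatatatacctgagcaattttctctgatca
Fabp2, chr3:122894963-122895071, plus strand: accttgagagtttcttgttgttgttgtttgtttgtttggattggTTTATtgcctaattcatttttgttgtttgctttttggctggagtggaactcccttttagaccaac
Dennd1b, chr1:138967649-138967720, plus strand: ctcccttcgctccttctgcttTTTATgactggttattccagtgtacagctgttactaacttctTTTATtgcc
Cdhr5, chr7:141276787-141276914, minus strand: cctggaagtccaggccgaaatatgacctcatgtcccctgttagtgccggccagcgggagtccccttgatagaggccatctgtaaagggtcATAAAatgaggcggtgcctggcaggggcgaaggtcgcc
Dnm2, chr9:21424707-21424857, plus strand: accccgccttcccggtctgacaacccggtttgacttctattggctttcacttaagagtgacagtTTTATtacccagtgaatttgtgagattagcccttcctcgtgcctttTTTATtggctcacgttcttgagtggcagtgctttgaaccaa
Smarcad1, chr6:65042352-65042502, plus strand: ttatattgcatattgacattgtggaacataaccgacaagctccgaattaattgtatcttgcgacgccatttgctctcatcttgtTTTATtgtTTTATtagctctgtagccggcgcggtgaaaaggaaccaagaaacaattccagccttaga
Nr5a2, chr1:136960483-136960633, minus strand: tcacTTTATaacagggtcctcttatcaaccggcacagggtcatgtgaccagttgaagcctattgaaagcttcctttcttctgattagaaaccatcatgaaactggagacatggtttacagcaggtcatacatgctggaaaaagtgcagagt
Ugt2b34, chr5:86906938-86907079, minus strand: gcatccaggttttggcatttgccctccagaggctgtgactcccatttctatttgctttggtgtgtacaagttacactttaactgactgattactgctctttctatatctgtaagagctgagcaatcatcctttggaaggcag

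The summit lay 17 bp before the start of Sis and 34 bp before that of Fabp2, and the nearest core was centred 24 and 29 bp from the summit. Sis, Fabp2 and Dennd1b each hold the longer form GCAATAAA on either strand. Their peaks had fold enrichments of 7.09, 5.76 and 8.26, and none overlapped an ATAC peak in either library. The peaks at Cdhr5, Dnm2 and Smarcad1 overlapped ATAC peaks in both libraries. The Dnm2 peak was the strongest of the 205, at a fold of 14.0, with a core 9 bp from the summit. At Cdhr5 the fold was 6.91 and the core lay 17 bp away, and at Smarcad1 9.57 and 11 bp. Nr5a2 had its nearest core 69 bp from the summit, and the printed stretch of Ugt2b34 held none.

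Over the 205 promoter peaks, core letters were densest at the summit. ATAAA on either strand occurred 6.89 times per kb within 25 bp of a summit, 4.58 times at 25 to 50 bp and 2.25 times at 150 to 200 bp. The same positions of all promoters held 2.32, 2.36 and 2.24 per kb. Both strands were searched, overlapping matches were counted, and every GCAATAAA also counts as an ATAAA. Within 100 bp of the summit, 37 of 71 windows that fit inside the promoter held the core (52.1%, 39.9 to 64.1), against 30.5% of all promoters cut the same way.

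**Figure D1:**
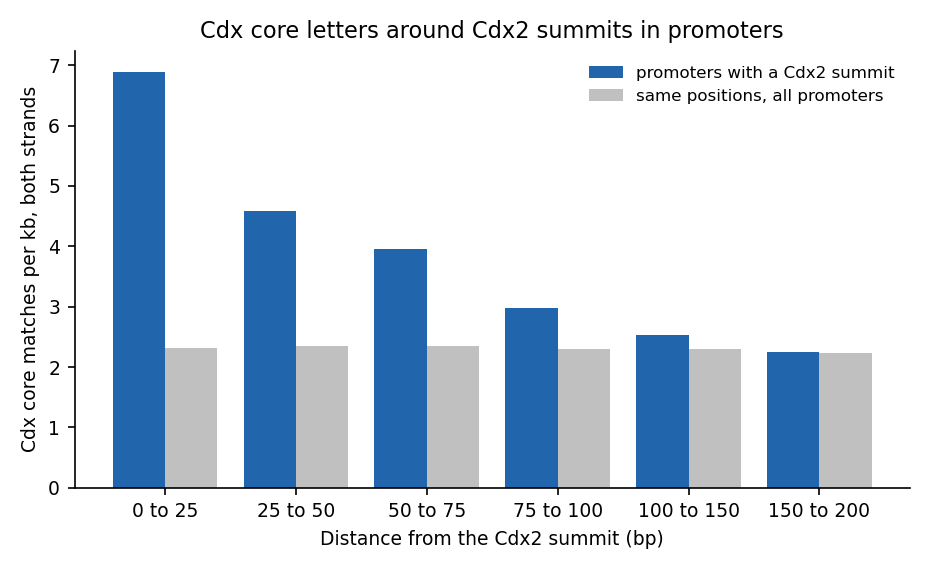
Matches of the Cdx core per kb (both strands) by distance from the Cdx2 summit in bp, for the 205 peaks with a summit in a promoter window (blue) and for the same positions of all promoters (grey). The blue bars fall from 6.89 at the summit to 2.25 at 150 to 200 bp, where they meet the grey bars.

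Promoter windows under a Cdx2 summit differed with their ATAC state. ATAAA lay in 27 of 28 windows whose Cdx2 peak had no ATAC peak (96.4%, 81.7 to 99.9), in 95 of 188 whose peak overlapped both libraries (50.5%, 43.2 to 57.9), and in 40.0% of all 32619 windows. Windows can overlap where a gene has several starts, so they are not independent. The longer GCAATAAA lay in 6 of the 28, in 5 of the 188 and in 0.981% of all windows. Mean GC content moved with this split, at 45.1% in the 28 windows, 56.5% in the 188 and 53.9% over all windows, and AT-rich windows hold more cores. Within windows of 45 to 55% GC, a division added after the data were seen, the core lay in 9 of 10 windows without an ATAC peak, 47 of 65 with both (72.3%, 59.8 to 82.7) and 46.1% of all windows. Under 45% GC, the values were 14 of 14, 18 of 23 (78.3%) and 78.4%. From 55 to 65% GC they were 4 of 4, 24 of 57 (42.1%) and 22.0%, and from 65% upward 6 of 43 with both (14.0%) and 7.65% of all, with no window lacking an ATAC peak. The windows with both ATAC peaks thus held the core about as often as all promoters under 45% GC and more often in the other 3 groups, with intervals that include the share of all promoters from 65% upward.

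Other motif letters were searched in the same windows on both strands. The AP-1 letters TGANTCA lay in 14 of the 227 windows with a summit (6.17%) and 7.85% of all, and the GATA letters AGATAA in 25 (11.01%) and 11.2%. The HNF4 letters CAAAGTCCA lay in 3 windows (1.32%, 0.273 to 3.81) and 0.478% of all. The GC-box letters CCCGCCC lay in 75 windows (33.0%) and 25.7% of all, with 70 of the 75 among the 188 windows under ATAC peaks in both libraries.

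Most Cdx2 peaks lay outside called open chromatin. Of the 5100 peaks, 1787 overlapped an ATAC peak in both libraries (35.0%, 33.7 to 36.4), 514 in 1 library (10.1%, 9.27 to 10.9) and 2799 in neither (54.9%, 53.5 to 56.3). Replicate 1 alone overlapped 1994 Cdx2 peaks (39.1%) and replicate 2 alone 2094 (41.1%). These shares stand beside the 0.411% and 0.477% of the chromosomes that the ATAC peaks cover. A peak without an ATAC peak is one under which no peak was called, and weaker accessibility there was not measured. Peaks were not screened for repeats or blacklisted regions, and the part of such peaks in these shares was not tested. Where the 2 kinds of peak overlapped, their summits lay a median of 69 bp apart in replicate 1 and 73 bp in replicate 2. Of these, 66.0% and 64.5% lay within 100 bp. The overlap rule itself bounds this distance, since these Cdx2 peaks had a median width of 260 bp and the nearest overlapping ATAC summit was taken. The 2799 peaks without an ATAC peak lay at a median of 8.31 kb and 7.53 kb from the nearest ATAC summit of replicates 1 and 2.

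The stronger a Cdx2 peak was, the less often it overlapped open chromatin. In quintiles of fold enrichment from weakest to strongest, the share with an ATAC peak in both libraries was 47.2%, 35.9%, 34.1%, 29.5% and 28.5%. The share with no ATAC peak went from 44.0% (40.9 to 47.1) to 62.2% (59.1 to 65.1). Ranked by −log10 q in place of fold, the share with both was 42.6% in the weakest and 32.1% in the strongest group, with the lowest value, 30.6%, in the group before it. Of the 100 strongest peaks by fold, 68 had no ATAC peak and 22 had 1 in both libraries, and these too were not screened for repeats or blacklisted regions. Among Cdx2 peaks that did overlap an ATAC peak, the 2 folds were hardly related: Spearman's rho across peaks was −0.11 over 1994 peaks in replicate 1 and −0.09 over 2094 in replicate 2. The ATAC folds of the 2 replicates had a rho of 0.76 over the 1787 shared peaks. These are descriptions across peaks of the same libraries.

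**Figure D2:**
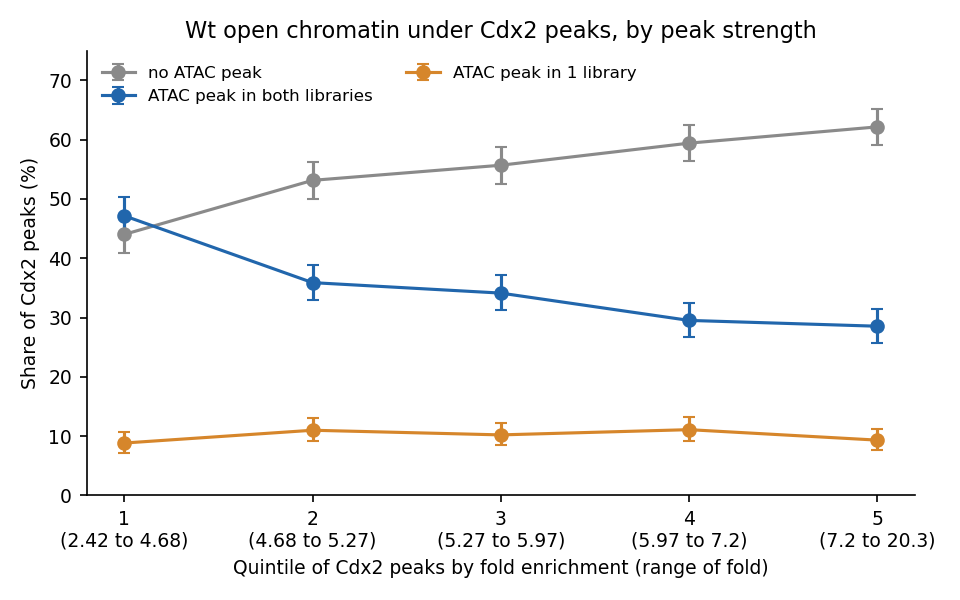
Share of Cdx2 peaks (%) with an ATAC peak in both Wt libraries, in 1 or in none, by quintile of Cdx2 fold enrichment (1020 peaks each; bars are exact 95% intervals for counting). The share with both falls from 47.2% to 28.5% while the share with none goes from 44.0% to 62.2%.

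From the side of open chromatin, Cdx2 was found at a small part of it. A Cdx2 peak overlapped 4.20% of the ATAC peaks of replicate 1 and 3.95% of replicate 2. With 5100 Cdx2 peaks against 48159 and 53937 ATAC peaks, these shares could not be high. Of 33732 merged regions with a peak in both libraries, 1823 held a Cdx2 peak (5.404%, 5.17 to 5.65), against 1.66% of 32255 regions with a peak in 1 library. Shared regions were wider, at a median of 264 bp against 90 bp. ATAC peaks with Cdx2 had a median ATAC fold of 5.73 in replicate 1 and 5.90 in replicate 2, and those without had 4.91 and 4.85. The share with Cdx2 was lowest in the weakest decile of ATAC peaks, at 1.60% and 1.65%. It was highest in the decile with folds from 5.94 to 6.86 in replicate 1 (6.77%) and in that from 6.87 to 8.35 in replicate 2 (7.51%), and lower again in the strongest decile (5.50% and 5.67%). Strong ATAC peaks are wide, and per Mb of ATAC peak the strongest decile had the lowest density in both libraries, at 111 in each.

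**Figure D3:**
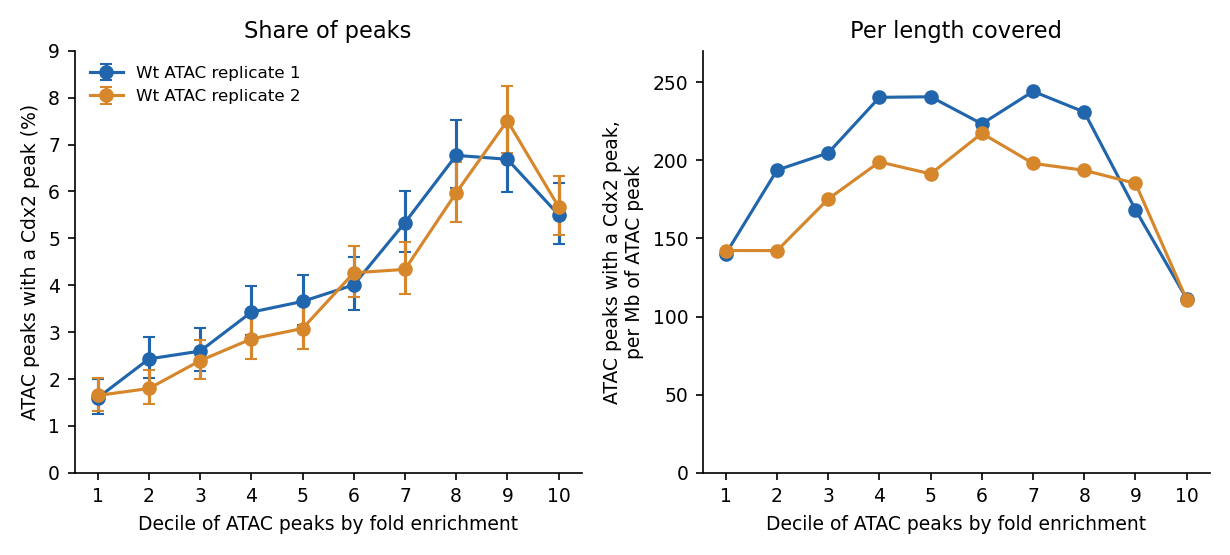
Left, share of ATAC peaks (%) that overlap a Cdx2 peak, by decile of ATAC fold enrichment, for Wt replicates 1 (blue) and 2 (orange), with exact 95% intervals for counting; right, the same peaks per Mb of ATAC peak. The share peaks at 6.77% and 7.51% below the strongest decile, which has the lowest density, 111 per Mb, in both libraries.

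Most Cdx2 summits lay away from gene starts. Of the 5100, 646 lay within 1 kb of an annotated start (12.7%, 11.8 to 13.6), 2552 elsewhere inside a gene span (50.04%), 905 within 10 kb of a span (17.7%) and 997 farther away (19.5%). The median distance to the nearest start was 11.04 kb. With coding genes alone, 9.04% lay at a start, 44.2% inside a span, 12.7% within 10 kb and 34.1% farther. ATAC summits lay within 1 kb of a start for 38.1% in replicate 1 and 36.2% in replicate 2. The annotation used gives gene spans without exons, so exons and introns were not told apart. For genes without a listed start, both ends of the span were taken as starts, which inflates these shares. Over 16861 genes with a known start, 5.12% of Cdx2 summits lay within 1 kb of the start and 1.86% within 1 kb of the other end, against 14.99% and 2.33% for ATAC replicate 1.

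Placement and openness went together. Cdx2 peaks with an ATAC peak in both libraries were at a start for 21.5% (19.7 to 23.5), those with 1 for 9.53% and those with none for 7.57% (6.62 to 8.62). At starts 59.6% of Cdx2 peaks were open in both libraries, against 31.1% inside genes, 31.8% near them and 32.2% farther away. Weak peaks were the promoter-rich ones: the share at a start was 24.8%, 12.3%, 10.8%, 8.73% and 6.76% from the weakest to the strongest quintile of Cdx2 fold.

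Open gene starts seldom carried Cdx2. Of ATAC peaks at a start, 2.21% in replicate 1 and 2.14% in replicate 2 overlapped a Cdx2 peak, against 6.42% and 6.54% of those more than 10 kb from any gene. The gap held among ATAC peaks of like strength: in the strongest quintile, 3.41% of 6386 peaks at starts and 11.4% of 3246 peaks elsewhere overlapped Cdx2 in replicate 1, and 3.53% and 11.7% in replicate 2.

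**Figure D4:**
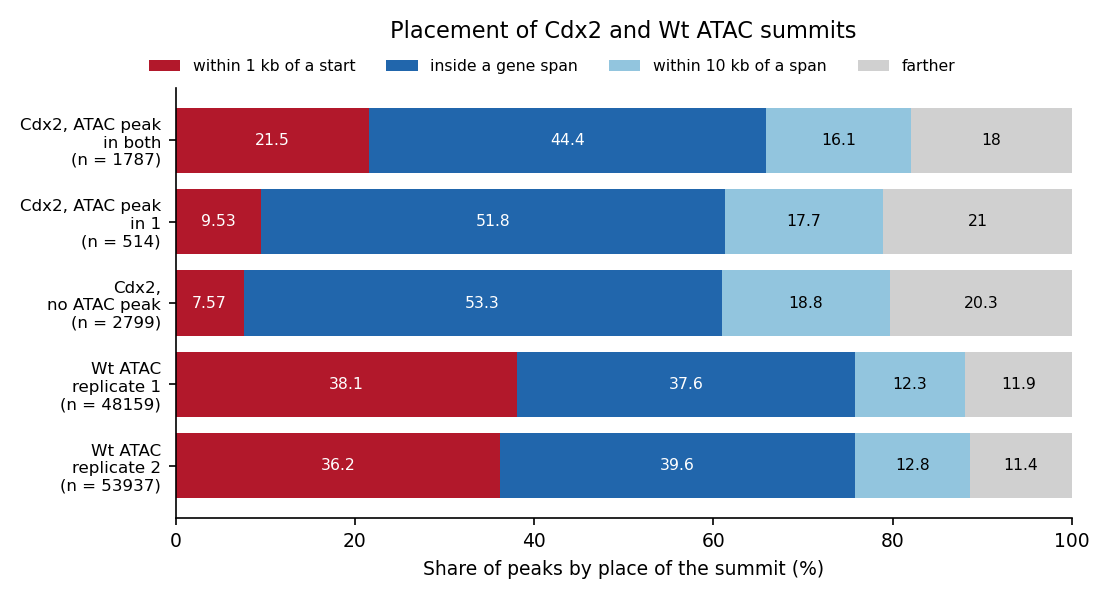
Share of summits (%) within 1 kb of a gene start, elsewhere inside a gene span, within 10 kb of a span or farther, for Cdx2 peaks by their ATAC state and for the 2 Wt ATAC lists. Cdx2 peaks with no ATAC peak are at a start for 7.57%, those with both for 21.5%, and ATAC summits for 38.1% and 36.2%.

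The 15 strongest peaks had folds from 15.6 to 20.3. The strongest, chr11:109933191-109933589, had a fold of 20.3 and lay inside Abca8b, a lipid transporter gene. The next, chr8:114505332-114505686, had 19.3 and lay inside Wwox, a long tumour suppressor gene. The third, chr9:121547456-121547850, had 19.03 and the highest −log10 q on these chromosomes, 102, and lay 30.2 kb from the nearest coding gene, Lyzl4. None of these 3 overlapped an ATAC peak, and their nearest ATAC summits lay between 21.2 and 102 kb away.

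Of the 15, 12 had no ATAC peak, and only the peak inside Dync1i1, a dynein chain gene, at chr6:5794169-5794510, overlapped 1 in both libraries. Its Cdx2 fold was 17.3 and its ATAC folds were 8.22 and 6.24. The peaks near Themis3 (16.7) and Inf2 (16.3), a formin gene, overlapped an ATAC peak in replicate 2 alone. The remaining 9 lay in or nearest to the coding genes Eri3, Olfr535, Prkg2, Tmco5b, Zfp111, Abca12, Rnf186, Ppp2r2b and Mob3b, at folds from 15.6 to 17.2, with Abca12 61.0 kb away. Rnf186, 11.7 kb from its peak, encodes a ubiquitin ligase of the colon epithelium.

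After Dync1i1, the strongest peaks with ATAC peaks in both libraries lay near Ncoa1 at 57.2 kb (fold 15.02), Edn1 at 24.5 kb (14.1) and Dnm2 (14.0). Edn1 encodes the peptide endothelin. These were named after their values were seen, apart from Dync1i1.

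Cdx2 peaks were mostly alone at the distance used to join them. With summits up to 12500 bp apart joined, 4090 peaks (80.2%) had no neighbour, and 72 groups of at least 3 held 238 peaks (4.67%, 4.10 to 5.28). The median gap between neighbouring summits was 155 kb, 30.04% of the 516 kb that even spacing would give. Neither this gap nor the share of lone peaks was set against random placement, which was not drawn. ATAC summits had median gaps of 15.3 kb and 12.7 kb, 27.9% and 26.0% of their even spacing, so neighbouring distances relative to density were similar for Cdx2 and for open chromatin. An ATAC peak in both libraries was as frequent under lone peaks (35.0%), pairs (35.1%) and larger groups (35.3%).

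The largest group was in the Hoxa cluster, whose genes give position along the body axis and are classic Cdx targets in the embryo. It held 8 peaks over 39.3 kb from chr6:52182863 to 52222174, across Hoxa3, Hoxa4, Hoxa5, Hoxa6 and Hoxa7. The strongest, at chr6:52200890-52201264 inside the Hoxa3 span, had a fold of 11.4 and its nearest ATAC summit 2.83 kb away. The next, at chr6:52190770-52191103 over Hoxa4, had 9.18 and was the only one of the 8 under ATAC peaks in both libraries, with ATAC folds of 4.36 and 4.79. The other 6 ranged from 4.08 to 5.49, so 2 of the 8 peaks stood well above the rest.

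The other large groups were unlike it. The last 2 described are the ones with the highest summed fold of 12 groups of 4 peaks. A group of 6 peaks over 29.3 kb at chr10:98666047-98695383 held no coding gene, with Atp2b1 the nearest at 219 kb, and 5 of its 6 peaks were open in both libraries, at folds from 4.50 to 6.53. A group of 5 at chr7:126634164-126665348, across Sgf29, a chromatin reader gene, had no ATAC peak under any of them, at folds from 4.63 to 6.71. A group of 4 at chr2:126943002-126961947, its nearest summit 9.29 kb from the protease gene Sppl2a, had a best fold of 10.9 and 3 peaks under an ATAC peak in 1 library. The 4 peaks at chr17:81734278-81753689 in and beside Slc8a1, a sodium-calcium exchanger gene, all lacked ATAC peaks, the nearest ATAC summits being at least 64.2 kb away.

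Hoxa3 had the most peaks in its span or within 10 kb, 9, or 14.1 per 100 kb. These 9 include the 8 peaks of the Hoxa group above, and only 4 of the 9 lay inside the Hoxa3 span. Hoxa3 was followed by Macrod2 and Mecom with 8 each and Lingo2, Baz2b and Pde4d with 7 each. Those 5 genes are long, and they held 0.396, 1.38, 0.549, 2.12 and 0.530 peaks per 100 kb in that order. Mecom encodes a zinc finger transcription factor, and 4 of its 8 peaks were open in both libraries, against 3 of 7 in Pde4d, 1 of 7 in Baz2b and none of 7 in Lingo2.

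A summit lay in the span or within 10 kb of 3098 of 21627 coding genes (14.3%) and of 4870 of 49550 genes of every kind (9.83%). A Cdx2 peak open in both ATAC libraries lay there for 6.25% of coding genes. This share depended on gene length, from 5.39% in the shortest quintile of coding genes to 28.3% in the longest. Coding genes had a median length of 17.3 kb, and the lists of transcription factors, transport, brush border and junction genes 36.5, 22.6, 31.1 and 24.02 kb. Against this background, lists of genes were described by their counts and were not tested. The lists were chosen with earlier results of these data known, and neighbouring genes can share a peak.

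**Figure D5:**
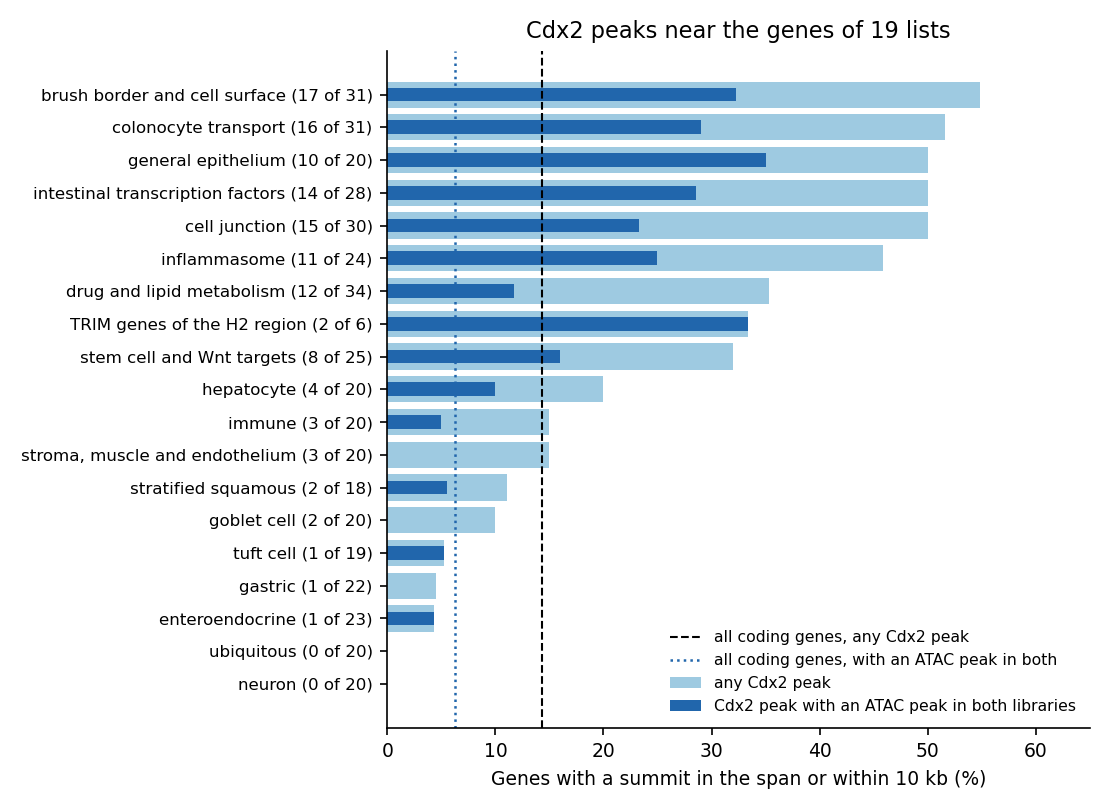
Share of the genes of each list (%) with a Cdx2 summit in the span or within 10 kb (light bars, counts in brackets) and with such a peak under ATAC peaks in both Wt libraries (dark bars). The dashed and dotted lines give all coding genes, 14.3% and 6.25%. The transcription factor, transport, brush border, junction and general epithelium lists lie between 50% and 54.8%. The inflammasome list lies at 45.8% and the drug and lipid metabolism list at 35.3%. The goblet, enteroendocrine and tuft lists lie at 10.0% or less.

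Of 28 intestinal transcription factor genes, 14 had a Cdx2 peak nearby (50%), 8 of them a peak open in both libraries. Hnf4a and Hnf4g, paralogous nuclear receptors of enterocytes, had 5 peaks each but in opposite chromatin states. The Hnf4a peaks had folds of 3.77, 7.0, 7.67, 6.60 and 9.69, and 4 were open in both libraries, with the strongest at chr2:163580162-163580528 past the end of the gene and the weakest 0.307 kb from a start. The Hnf4g peaks had folds of 10.8, 6.94, 9.53, 10.2 and 10.7, and none overlapped an ATAC peak. So the paralog with the stronger Cdx2 peaks was the one without called open chromatin under them.

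Isx, an intestine-specific homeobox gene, had 3 peaks beyond its far end, of 3.60, 8.14 and 5.11, none with an ATAC peak. Nr1h4, the bile acid receptor FXR, had a single peak of 8.44 inside the gene, with ATAC folds of 8.48 and 9.26. Among factors without a Cdx2 peak within 10 kb were Gata4, Klf4, Elf3 and Vdr.

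Cdx2 itself had no peak within 50 kb, and the nearest lay 247 kb away. Cdx1, whose allele is labelled null in these mice, had a weak peak of 4.75 at 3.41 kb from its span, without an ATAC peak.

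Transport genes of colonocytes had a peak for 16 of 31 (51.6%), 9 of them open in both libraries. Gucy2c, the receptor for guanylin, had a peak of 10.5 at 0.095 kb from an end of its span, at chr6:136781694-136781997, with ATAC folds of 7.78 and 8.93. Slc9a2, a sodium-proton exchanger, had 3 peaks of 8.82, 10.5 and 10.3, all strong. The middle one lacked an ATAC peak and the outer ones were open in both libraries, so strong peaks of both kinds stood within 1 gene.

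Cftr, the chloride channel, had 6 peaks inside its span from 4.37 to 7.32, of which 2 neighbours about 77.5 and 78.0 kb from the start were open in both libraries. Slc26a3, the main chloride-bicarbonate exchanger of the colon surface, had 4 peaks within 10 kb, of 6.36, 4.91, 6.2 and 7.10. The only one open in both libraries was also the weakest and lay 0.142 kb from a start. Car1, a carbonic anhydrase of the colon, had 2 peaks of 7.77 and 6.92, the former under an ATAC peak in replicate 1 alone.

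Brush border and cell surface genes had a peak for 17 of 31 (54.8%), 10 of them open in both. Pls1, an actin bundler of microvilli, had 3 peaks of 6.26, 9.56 and 4.56, all open in both libraries. Myo7b and Ush1c encode parts of the complex that links microvillus tips, and had 1 peak each, of 9.54 with ATAC folds of 6.74 and 6.94, and of 9.31 with an ATAC peak in replicate 1 alone. Mep1a, a meprin protease gene, had 1 of 8.40 without an ATAC peak, and Cobl, an actin nucleator gene, 1 of 7.09 under strong ATAC peaks of 10.1 and 11.02. With Sis and Cdhr5 from above, the brush border peaks thus covered promoters and gene bodies, open and not called open.

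Cell junction genes had a peak for 15 of 30 (50%), 7 of them open in both. Cldn7, a claudin of the basolateral membrane, had the strongest, 10.9, at 3.12 kb before its start at chr11:69961477-69961862, without an ATAC peak. Tjp1, the tight junction scaffold ZO-1, had 4 peaks inside its span, of 4.92, 4.20, 8.53 and 9.75, and the 2 in the middle were open in both libraries. Marveld3 and Dsp, genes of tight junctions and desmosomes, had peaks of 7.83 and 5.81, both open in both libraries, and Lsr, of tricellular junctions, 1 of 7.42 without an ATAC peak. General epithelial genes had a peak for 10 of 20, of which 6 are counted in the lists above. Outside those, Esrp1, a splicing regulator of epithelia, had a peak of 9.68 open in both, Krt20, a keratin of surface colonocytes, 2 of 7.29 and 5.86 without ATAC peaks, and Krt8 3 of up to 6.25.

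Drug and lipid metabolism genes had a peak for 12 of 34 (35.3%). A peak open in both libraries lay near 4 of the 34 (11.8%), against 6.25% of all coding genes. Cyp2d34 had a peak of 8.98 without an ATAC peak, and Abcg2, a drug efflux pump, 3 of 5.91, 8.44 and 6.51 without ATAC peaks. Abcb1a, the P-glycoprotein gene, differed, with 3 of its 4 peaks open in both and a strongest value of 6.92. Ces2c, a carboxylesterase gene, had 1 of 6.10.

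Stem cell and Wnt target genes had a peak for 8 of 25 (32.0%). These genes are long, at a median of 72.5 kb, and the share over all coding genes was 16.7% in the quintile with a median of 36.3 kb and 28.3% in that with 109 kb. Prom1 and Hopx had the strongest of all listed genes, 12.54 and 12.1, both inside the gene. The Prom1 peak was under an ATAC peak in replicate 1 alone, a further peak of 8.59 at 3.67 kb from its start was open in both libraries, and the Hopx peak had no ATAC peak. Cd44, Slc12a8 and the strongest peak of Nr5a2, of 7.24, 6.63 and 6.86, had none either. Lgr5, Ascl2, Axin2 and Myc, central genes of crypt base stem cells and Wnt signalling, had no Cdx2 peak within 10 kb. Rnf43, Ephb2 and Lrig1 of the same list had one. By nearest coding gene the list had 14 of 25 (56%), against 15.5% of coding genes. For the gene span alone it had 8 of 25 (32.0%) against 8.45%, and within 50 kb 10 of 25 (40%) against 29.3%.

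Inflammasome genes, whose products sense danger signals and mature interleukins, had a peak for 11 of 24 (45.8%), 6 open in both. Nlrp3 had none, and the nearest peak lay 320 kb away. Nek7, an NLRP3 partner, had 3 peaks of 4.51, 6.48 and 10.1, without an ATAC peak in both libraries at any of them. Il18, a cytokine of the epithelium, had 1 of 6.53 inside the gene, open in both libraries, and Naip1 had 3 of 6.00, 5.79 and 6.41, all open in both. Nlrp9b had 1 of 6.24 and Nlrp6, an inflammasome sensor of the gut, 2 of 5.97 and 5.26, without ATAC peaks. The genes of this list had a median length of 27.5 kb. For the gene span alone the list had 5 of 24 (20.8%) against 8.45% of coding genes. At −log10 q of at least 10 it had 4 of 24 (16.7%) against 5.05%.

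Trim31 encodes a ubiquitin ligase known to target NLRP3 for degradation. It had a peak at chr17:36897066-36897416, with its summit 0.888 kb before the start, a fold of 5.95 and a −log10 q of 14.0. The ATAC folds under it were 5.33 and 5.15, so it was open in both libraries. Its fold was near the median of all peaks, 5.59, and its −log10 q was in the strongest quintile, which starts at 13.1. A further peak, of 4.18 without an ATAC peak, lay 12.54 kb from the gene. Of the other listed TRIM genes of this H2 region, Trim40 had the same nearby peak, at 7.09 kb from its span, and Trim10, Trim15, Trim26 and Trim39 had none within 10 kb. Within 50 kb, 5 of the 6 genes, Trim31 included, had a peak.

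Lists of secretory cells lay below the background at this distance. Goblet cell genes had a peak for 2 of 20, Spink4 (4.63) and Tff3 (4.45), both weak and without ATAC peaks, whereas Muc2, Spdef and Atoh1 had none. Within 50 kb this turned, with a peak for 12 of 20 goblet genes against 29.3% of coding genes. By nearest coding gene the goblet list was also above, at 7 of 20 against 15.5%. Enteroendocrine genes had 1 of 23, Sct, which shares the Cdhr5 peak, and tuft cell genes 1 of 19. Median lengths were 13.8 kb for goblet, 9.12 kb for enteroendocrine and 27.7 kb for tuft cell genes. The share over all coding genes was 9.11% in the length quintile with a median of 7.58 kb and 12.1% in that with 17.3 kb.

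Lists of other tissues were mixed. Gastric genes had 1 of 22, Tff2, which shares the Tff3 peak, and stratified squamous genes 2 of 18, Lor (5.11) and Dsg1a (4.69). The Lor peak was open in both libraries and the Dsg1a peak had no ATAC peak. Hepatocyte genes had 4 of 20, and of these Pck1, the gluconeogenic enzyme gene, which the intestine also expresses, had 2 peaks of 4.95 and 6.41 open in both libraries. Cps1 (5.94), Cyp2e1 (4.96) and Ttr (4.82) were the others, of which the Ttr peak was open in both libraries and the Cps1 and Cyp2e1 peaks had no ATAC peak. Stroma, muscle and endothelium had 3 of 20, Pecam1 (8.88), Tek (6.95) and Pdgfrb, which shares the Cdx1 peak, all without ATAC peaks. Immune genes had 3 of 20, Itgax (6.81), open in both libraries, and Itgae (5.24) and Cd14 (4.43), without ATAC peaks. Neuronal and ubiquitous genes had 0 of 20 each. The ubiquitous genes are short, at a median of 8.59 kb against 17.3 kb for coding genes, and the neuronal genes long, at 43.4 kb. Of the ubiquitous genes, 18 of 20 had an ATAC summit at a start in each replicate, so most had open promoters without Cdx2. Open starts of all genes were alike, with Cdx2 at 2.21% and 2.14% of ATAC peaks at starts in replicates 1 and 2. Over all coding genes, the share with a peak was 9.11% in the length quintile with a median of 7.58 kb. Within 50 kb, 6 of 20 ubiquitous and 2 of 20 neuronal genes had a peak, against 29.3% of coding genes.

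Cdx2 peaks were spread over the autosomes at 1.57 to 2.94 per Mb, highest on chromosome 19. Chromosome X had 66 peaks, or 0.387 per Mb. It also had fewer ATAC peaks, and relative to them the gap was smaller, with 7.43 Cdx2 peaks per 100 ATAC peaks of replicate 1 against 8.65 to 12.7 on the autosomes, and 7.05 against 7.63 to 11.3 for replicate 2.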

How the data were processed

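ChIP-seq was single-end and ATAC-seq paired-end, per the labels' protocols. BWA, Bowtie2, fastp and MACS2 and the builds mm10 and GRCm38 appear in the submitters' processing notes, which give no roles. An IgG control is mentioned in the labels' protocols, and its use in the peak call, the caller's settings and the transposase shift were not stated in these sources. Peaks were called per library by the authors, since each list's peak names give its library, per the file headers. The deposited fold enrichment is a ratio over local background and is the authors' value for each peak. The deposited −log10 p and −log10 q are the authors' too, and the deposited score is 10 times −log10 q, rounded. Folds rank peaks within a list and were not compared as levels between lists.

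Groups followed the sample titles. Peaks were joined under Python 3.11.15 (scipy 1.17.1, pandas 2.3.3, numpy 2.4.6), with an overlap of at least 1 bp, and the interval code was tested on simulated peaks. Genes came from RefSeq, GRCm38.p6, matched by symbol. Of the listed genes, Muc17 and Gif had no match and were left out. A start is that of the promoter table where it lists the gene, and otherwise both ends of the span. Members and lists were chosen with earlier results of these data known. The genes named are Cdx2, Cdx1, Trim31 and Nlrp3, those nearest the 15 strongest peaks, those at the 5 largest groups of peaks (equal groups ordered by summed fold), up to 5 per list by strongest peak, and the 5 with the most peaks, with Pde4d as a tie. Other genes were named as list members with or without a peak, for a shared peak or for a printed promoter, after their values were seen. Some genes that the rule takes are not reported here. The alternatives changed the overlap rule, the −log10 q minimum (5 or 10), the start window, the grouping distance and the gene window, and left out each ATAC library. The DKO and RNA libraries were not used here.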

Additional observations from a re-analysis of the deposited data

Results flagged for a closer look

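Outside the chromosomes described, the Cdx2 list held 72 peaks on 10 unplaced contigs and 7 on the mitochondrial genome, which no comparison used. The contig peaks had a median fold of 4.25, a highest fold of 20.001 and a highest −log10 q of 171, above the 102 of any peak on the chromosomes. The mitochondrial peaks were weak and wide, at a median fold of 1.88 and a median width of 1027 bp. The ATAC lists held no peaks on these contigs, so their openness was not measured.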

How the results depend on the processing

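The share of Cdx2 peaks with ATAC peaks in both libraries was 35.0% and moved to 23.7% with the Cdx2 summit inside the ATAC peak, 20.7% with at least 50% of the Cdx2 peak covered, 32.9% and 31.5% for Cdx2 peaks of −log10 q of at least 5 and 10, and 22.7% for ATAC peaks of at least 5. The share with none, 54.9%, moved to 65.7%, 70.3%, 56.8%, 58.8% and 67.6% in that order. Leaving out 1 ATAC library gave 39.1% to 41.1% with an ATAC peak and 58.9% to 60.9% without. Under each of these, more peaks lacked an ATAC peak than overlapped both. The share at a gene start, 12.7%, was 8.82% within 500 bp, 20.9% within 2.5 kb, 9.04% for coding genes, and 9.63% and 8.16% at −log10 q of at least 5 and 10. The share in groups of 3 or more, 4.67%, was 0.824% at 5 kb, 10.1% at 25 kb and 1.28% at −log10 q of at least 10. The share of coding genes with a peak nearby, 14.3%, was 8.45% for the span alone, 29.3% within 50 kb, 15.5% for the nearest coding gene, and 10.9% and 5.05% at −log10 q of at least 5 and 10. The core lay in 39.7% of windows of 50 bp each side of the summit, against 52.1% at 100 bp, and 17.8% of all promoters at that width. Of the 19 lists, 11 stayed on the same side of the share of all coding genes under every gene rule, 8 above and 3 below. The 8 that switched were the TRIM, goblet, hepatocyte, immune, squamous, stromal, tuft and ubiquitous lists, with goblet genes at 12 of 20 within 50 kb. The list shares came from counts of 34 genes or fewer. With 1 ChIP library, the spread between ChIP samples is unknown. No paired analysis was possible because the results come from no test and the ChIP group has 1 library.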
